A study of Homo sapiens with 16 samples.

Results

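The comparison described is that of MCF10A cells given 2-deoxy-glucose (2DG) with MCF10A cells given vehicle, over all genes measured. It rests on 8 of the 16 arrays of the series, taken by the cell line and treatment in their labels: 4 arrays of 2DG-treated cells and 4 of vehicle-treated cells. MCF10A is an immortalized, non-tumorigenic human mammary epithelial line. Both groups were grown at low confluence in DMEM/F12 with glutamine, 17.5 mM glucose and antibiotics, to which horse serum, insulin, human epidermal growth factor (hEGF), cholera toxin and hydrocortisone had been added. One group then received 50 mM 2DG and the other the same amount of water, and RNA was taken after 24 h. The 4 replicates of a group, A to D, are called independent biological replicates in the series' design text, which says that they were run in parallel. The other 8 arrays hold MDA-MB-231, a breast cancer line, with the same treatments in a medium with fetal bovine serum. They entered the estimate of spread, and the difference between the lines was tested with them. The series addressed how the use of glucose bears on which genes mammary cells express.

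2DG is a glucose analogue that hexokinase phosphorylates and that glycolysis cannot process further, so that glucose use slows. It can also enter glycan precursors in place of mannose. In epithelial cells insulin keeps the FOXO transcription factors out of the nucleus, AMP-activated protein kinase (AMPK) responds to a shortage of ATP, and mTORC1 couples nutrients to ribosome and protein production. Hydrocortisone acts through the glucocorticoid receptor, and hEGF through the ERBB receptors. Genes of the cell cycle and DNA replication, the ATF4 response, endoplasmic reticulum stress, NRF2 targets and YAP and TAZ targets were set aside, and the account is of the other 19119 of 19775 genes. Of the 656 genes set aside, 194 rose and 414 fell.

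The 8 arrays carried an epithelial profile. Of 15 genes that mark breast epithelium, 11 had a value, and the other 4 (KRT17, KRT6A, KRT6B and TP63) were not analysed here. On vehicle the 11 lay between 10.36 (ITGB4, a hemidesmosome integrin) and 14.67 (SFN, an epithelial 14-3-3 protein) on the log2 scale of the deposited values. With 2DG the basal keratin KRT5, the receptor EGFR and the cadherin CDH1 rose, by 0.59, 0.74 and 0.46, and the keratins KRT14, KRT8 and KRT18 fell, by 0.32, 0.29 and 0.50. Of 16 genes that mark blood, endothelium, fat, muscle, liver, glia or stroma, 14 had a value, 5 rose and none fell. The summed level of these 14 on the linear scale was 1626 to 1679 over the vehicle arrays and 3453 to 3710 over the 2DG arrays, and its highest member was the collagen gene COL1A1, at 9.09, 9.04, 8.98 and 9.03 on vehicle and 11.22, 11.13, 11.08 and 11.16 with 2DG, a rise of 2.11. Their part in the other results was not tested. The monocyte marker CD14 rose by 0.61 and the endothelial marker CDH5 by 0.20. HBB and GFAP rose by 0.23 and 0.22 at their brightest probe set and were called neither with all probe sets averaged (adjusted p = 0.101 and 0.970) nor without shared ones (adjusted p = 0.720 and 0.251), while the endothelial marker PECAM1, not called here (adjusted p = 0.204), changed by 0.54 on average over its probe sets (adjusted p = 8.37e-09). The pan-leukocyte marker PTPRC (3.84 and 3.75) and the fat marker ADIPOQ (3.45 and 3.50) were near the floor of the arrays in both groups. RNA quality moved with the treatment. The log2 ratio of the 3' to the 5' actin control was 0.34 to 0.49 on vehicle and 0.50 to 0.65 with 2DG, so that the groups did not overlap (two-sided exact permutation test, p = 0.0286, the smallest that 4 against 4 arrays allow). The same ratio for GAPDH was 0.14 to 0.17 and 0.15 to 0.18 (exact permutation p = 0.257). With the actin ratio as a covariate, 5575 genes rose and 5035 fell, where 5732 and 4989 did without it, and none of 315 genes followed singly lost its call. That fit used 1 slope for all 16 arrays, taken from the spread within groups. The spread was widest in MDA-MB-231 on vehicle, where replicate B had 1.09 and the others 0.38 to 0.47. Within MCF10A the actin ratio and the treatment cannot be told apart, so the fit says little about RNA quality there. The mean over every probe set moved by 0.48 for EGFR, 0.90 for COL1A1, 0.096 for HBB and 0.0033 for GFAP. Without shared probe sets the change was -0.052 for HBB and -0.12 for GFAP.

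Treatment with 2DG changed a large share of the transcriptome of MCF10A. A gene was said to have risen or fallen, or to be called, where its Benjamini-Hochberg adjusted p over all genes was under 0.05 in the moderated test of limma, and changes are given as 2DG minus vehicle on the log2 scale. This held for 10721 genes or 54.2%: 5732 rose (29.0%) and 4989 fell (25.2%). The excess of rises depended on the scaling, since with array medians centred 5161 rose and 5513 fell. The share called depended on the level, and of the 13573 genes with a mean of at least 6 in a group 10006 were called. The 4 vehicle and the 4 2DG values did not overlap for 51.6% of all genes. The median change was 0.0225 and the median standard error (SE) 0.0665. A level given singly is the mean of 4 arrays, and the median standard deviation (SD) of a gene was 0.0759 on vehicle and 0.0787 with 2DG (n = 4). Outside the lists set aside, 5538 genes rose and 4575 fell, and 1003 and 840 of these changed by at least 1, which is 2-fold. Since most genes were called, a count within a gene group means little unless it departs from these shares. Arrays of one group correlated at 0.998 and arrays of different groups at 0.964 to 0.965, over genes, which are not independent replicates.

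**Figure D1:**
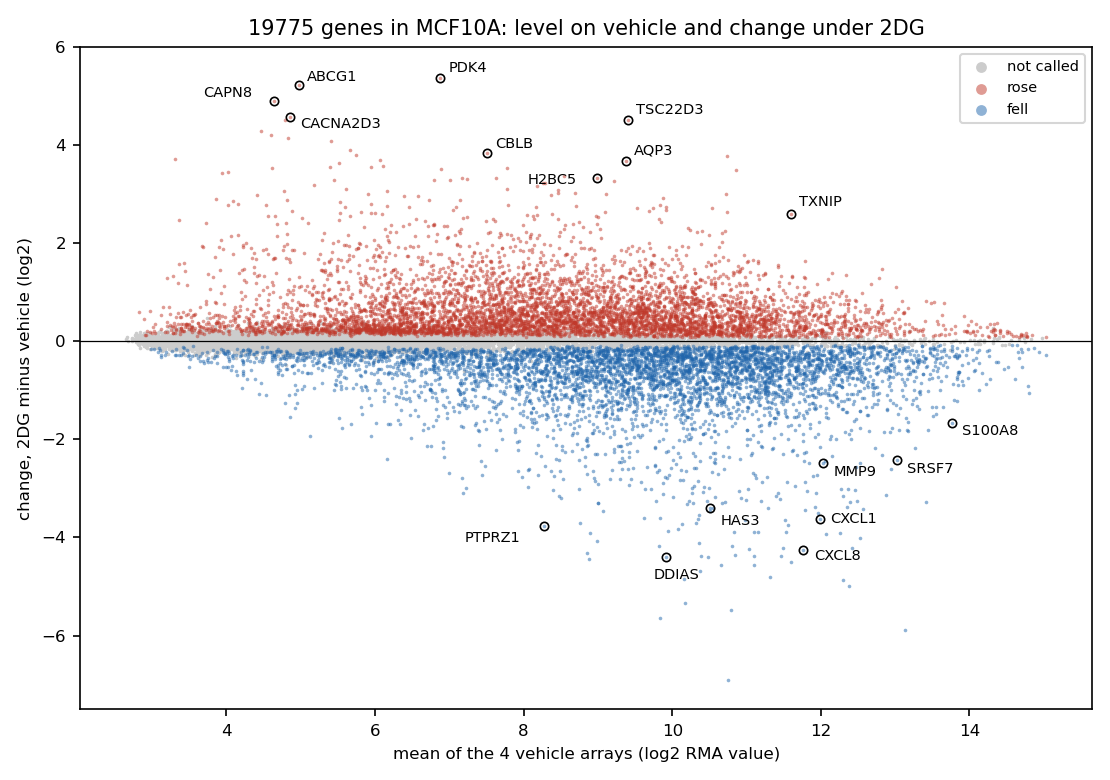
Level on vehicle and change under 2DG for 19775 genes. Each point is a gene, with the mean of the 4 vehicle arrays (log2 RMA value) on the x axis and the change, 2DG minus vehicle (log2), on the y axis; red genes rose, blue genes fell and grey genes were not called. PDK4 had the highest rise of the labelled genes, at 5.37 from a level of 6.88, and CXCL8 fell by 4.26 from 11.76; the unlabelled points below DDIAS are genes of the lists set aside.

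The 15 largest rises outside the lists set aside were led by PDK4, a kinase that switches off pyruvate dehydrogenase. Its values were 6.91, 6.74, 6.94 and 6.93 on the vehicle arrays and 12.23, 12.21, 12.25 and 12.31 on the 2DG arrays, a change of 5.37 (SE 0.053, adjusted p = 2.97e-19), or 41.4-fold. All 4 treated values were thus more than 5 above every vehicle value. ABCG1, which exports cholesterol, followed with 4.91, 4.99, 4.93 and 5.08 on the vehicle arrays and 10.18, 10.20, 10.13 and 10.29 on the 2DG arrays, a change of 5.22 (SE 0.076, adjusted p = 8.17e-18). CAPN8, a calcium-dependent protease of the calpain family, went from 4.75, 4.80, 4.50 and 4.49 to 9.49, 9.52, 9.61 and 9.51, a change of 4.90 (SE 0.082, adjusted p = 4.19e-17). CACNA2D3, an auxiliary subunit of voltage-gated calcium channels, went from 4.72, 5.28, 4.80 and 4.60 to 9.29, 9.39, 9.46 and 9.52, a change of 4.57 (SE 0.13, adjusted p = 1.76e-14). The vehicle values of these last 3 genes lay near 5, low on the arrays, where small signals are compressed. Another 6 of the 15 started as low: the B cell adaptor gene BLNK rose by 4.29, the ciliary gene CFAP53 by 4.21, the scavenging CXCL12 receptor ACKR3 by 4.15, the transcriptional repressor ZBTB16 by 4.08, the noncoding RNA LINC00622 by 3.73 and KLRC3 by 4.51. KLRC3 encodes a receptor of natural killer cells and has near-identical copies, so that its identity is uncertain. From higher levels, TSC22D3, a glucocorticoid-induced leucine zipper protein, rose from 9.40 to 13.90, the water and glycerol channel gene AQP3 from 9.37 to 13.04 and the ubiquitin ligase gene CBLB from 7.51 to 11.36. RHOU rose by 3.91 and RGCC, a regulator of the cell cycle, by 3.62. The 3 changes were 4.50 for TSC22D3, 3.67 for AQP3 and 3.85 for CBLB. Averaged over all probe sets of the gene, the change was 2.95 for ABCG1, 1.51 for ACKR3, 1.42 for RGCC, 2.56 for TSC22D3 and 2.55 for CBLB. Once shared probe sets were left out, the change was 1.57 for ABCG1, 0.37 for RGCC and -0.33 for TSC22D3.

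The 15 largest falls included chemokines and other secreted or matrix-forming products. DDIAS, which protects cells from apoptosis after DNA damage, had values of 9.94, 9.91, 9.93 and 9.88 on the vehicle arrays and 5.23, 5.29, 6.15 and 5.43 on the 2DG arrays, a fall of 4.39 (SE 0.14, adjusted p = 6.97e-14). The neutrophil attractant CXCL8 had values of 11.79, 11.73, 11.77 and 11.76 on the vehicle arrays and 7.48, 7.54, 7.55 and 7.45 on the 2DG arrays, a fall of 4.26 (SE 0.059, adjusted p = 5.12e-18) or 19.1-fold. Its relative CXCL1 had values of 11.95, 12.03, 11.97 and 12.01 on the vehicle arrays and 7.95, 8.17, 8.73 and 8.59 on the 2DG arrays, a fall of 3.63 (SE 0.16, adjusted p = 3.94e-12). For CXCL8 the 2DG arrays lay within 0.10 of each other, while for CXCL1 they spread from 7.95 to 8.73. The hyaluronan synthase gene HAS3 fell from 10.51 to 7.10, a change of -3.41. PTX3, a soluble pattern recognition protein, fell by 3.20, and PLA2G4A, the phospholipase that releases arachidonic acid, by 2.89. Receptors in this group were the tyrosine phosphatase PTPRZ1, which fell by 3.76 from 8.28, and the Mas-related receptor MRGPRX3, which fell by 3.71 from 8.75. MACC1, known as a regulator of the hepatocyte growth factor receptor gene, fell by 2.97, and the T-box factor gene EOMES by 2.90. The rest were TBC1D30 (-3.17), a regulator of Rab GTPases, FRMD5 (-3.10), the nuclear envelope gene TMEM201 (-3.09), the cullin adaptor gene KBTBD8 (-3.02) and the antisense RNA TMPO-AS1 (-2.98). TMPO-AS1 spread most of the 15 over the treated arrays, with 4.84, 4.59, 3.57 and 3.98 on the 2DG arrays against 7.31, 7.09, 7.34 and 7.18 on vehicle. These 2DG values lay low on the arrays, where small signals are compressed. With 2DG, FRMD5 (4.09), PTPRZ1 (4.52), MRGPRX3 (5.04) and MACC1 (5.09) ended as low. The sizes of such falls, and the spread of TMPO-AS1, are less certain for that reason. Over all of its probe sets a gene's mean change was -1.87 for HAS3, -1.88 for MACC1, -2.10 for TBC1D30, -1.69 for FRMD5 and -1.89 for TMEM201.

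**Figure D2:**
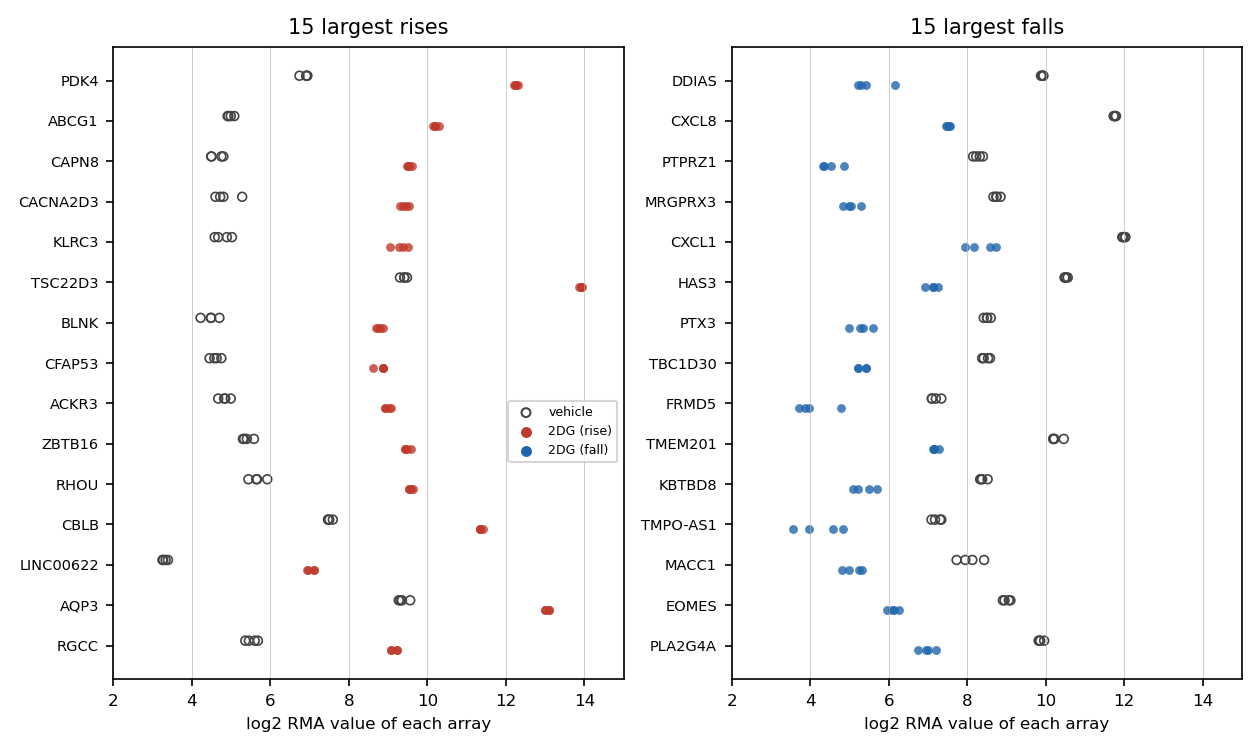
Values of the 15 largest rises (left) and the 15 largest falls (right) on each of the 8 MCF10A arrays. The x axis gives the log2 RMA value; open circles are the 4 vehicle arrays and filled circles the 4 2DG arrays of a gene. The genes were chosen by their change, so that the groups stand apart in each; the 2DG arrays lie within 0.10 of each other for CXCL8 and between 3.57 and 4.84 for TMPO-AS1.

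Genes of insulin signalling and targets of FOXO factors had the highest share of rises of the 42 lists described. Of 38 measured members, 30 rose and 2 fell, with a median change of 1.00, where the median of all genes was 0.0225. Among the targets, the selenium transporter gene SELENOP had values of 8.75, 8.57, 8.68 and 8.75 on the vehicle arrays and 11.75, 11.56, 11.68 and 11.85 on the 2DG arrays, a change of 3.02 (SE 0.065, adjusted p = 7.25e-16). TXNIP, an arrestin-like protein that restrains glucose uptake, had values of 11.57, 11.56, 11.59 and 11.67 on the vehicle arrays and 14.19, 14.20, 14.18 and 14.19 on the 2DG arrays, a change of 2.59 (SE 0.033, adjusted p = 2.08e-18). TXNIP was already bright on vehicle and was among the brightest genes with 2DG. FBXO32, a ubiquitin ligase of muscle wasting, rose by 2.50 and the repressor gene BCL6 by 2.29. These 2 and the next genes were named after their values were seen. Of the signalling chain, the receptor gene INSR rose by 0.44, the adaptor genes IRS1 and IRS2 by 0.89 and 2.25, and the factor genes FOXO1 and FOXO3 by 2.23 and 1.41. IRS2 had values of 10.34, 10.37, 10.46 and 10.42 on the vehicle arrays and 12.76, 12.65, 12.53 and 12.63 on the 2DG arrays, with no overlap. PIK3IP1, an inhibitor of phosphatidylinositol 3-kinase, was at 7.15 and 7.32 and was not called (adjusted p = 0.0671), though it was under 5 alternatives. The members that fell were the kinase gene AKT1, by 0.68, and the phosphatase gene G6PC3, by 0.94; without shared probe sets 1 of 30 members fell, and SELENOP was not called (adjusted p = 0.125). In the related IGF system the counts were nearer to those of all genes: 6 of 17 rose and 3 fell, with a median change of 0.12. There the adaptor gene GRB10 rose by 1.35 and the receptor gene IGF1R by 0.81, while the hormone gene STC1 fell by 2.65 and the binding protein genes IGFBP2 and IGFBP7 by 0.57 and 0.57. With every probe set of a gene averaged, the change came to 1.22 for SELENOP, 1.25 for FBXO32, 1.38 for FOXO1, 0.50 for IGF1R and -0.31 for IGFBP7. Probe sets that are not shared gave 0.16 for SELENOP.

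The promoters of the 3 members of the FOXO and insulin list with the largest change are printed because the forkhead core can be looked for in them. They run from 250 bases before to 50 bases after the start in RefSeq (GRCh38.p14). Capitals mark a match to the forkhead core TGTTTAC or its complement GTAAACA. PDK4 (chr7:95596467-95596766, minus strand) had no match, while SELENOP (chr5:42811843-42812142, minus strand) had one 45 bases and TXNIP (chr1:145996530-145996829, minus strand) one 124 bases before the start.
PDK4: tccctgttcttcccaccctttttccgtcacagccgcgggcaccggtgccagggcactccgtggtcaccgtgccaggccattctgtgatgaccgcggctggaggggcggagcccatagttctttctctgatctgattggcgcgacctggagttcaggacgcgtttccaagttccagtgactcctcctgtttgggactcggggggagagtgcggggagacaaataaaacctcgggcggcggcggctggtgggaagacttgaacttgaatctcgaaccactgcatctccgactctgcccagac
SELENOP: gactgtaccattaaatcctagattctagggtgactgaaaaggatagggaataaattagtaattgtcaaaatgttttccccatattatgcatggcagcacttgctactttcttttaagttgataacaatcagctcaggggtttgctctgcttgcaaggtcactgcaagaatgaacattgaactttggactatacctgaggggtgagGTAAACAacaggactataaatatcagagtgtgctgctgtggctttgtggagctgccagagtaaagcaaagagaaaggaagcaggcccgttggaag
TXNIP: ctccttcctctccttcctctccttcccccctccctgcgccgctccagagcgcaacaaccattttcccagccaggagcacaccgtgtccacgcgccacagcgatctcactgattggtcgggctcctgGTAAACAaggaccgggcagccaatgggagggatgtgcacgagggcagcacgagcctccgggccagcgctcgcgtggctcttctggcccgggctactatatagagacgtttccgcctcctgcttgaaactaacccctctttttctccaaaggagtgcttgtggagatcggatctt
Over 15384 genes with such a promoter, 2.62% held the forkhead core on either strand. The share was 3.00% of 4631 called rises, 1.68% of 4105 called falls, 4.07% of 810 rises of at least 1 outside the lists set aside and 1.79% of 671 such falls. Of 32 promoters of the list, 4 (12.5%) held it. The AP-1 site TGACTCA was in 3.74% of all promoters, in 5.31% of those large rises and in 2.53% of those large falls. The cyclic AMP element TGACGTCA was in 2.67%, 2.72% and 3.43%. A match is a description of the letters and not a binding site.

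Targets of the glucocorticoid receptor, whose ligand hydrocortisone was in the medium of both groups, mostly rose. In the list, 19 of 28 rose and 5 fell, with a median change of 0.80. Besides PDK4 and TSC22D3, the repressor gene ZBTB16 stood out, with values of 5.30, 5.33, 5.40 and 5.58 on the vehicle arrays and 9.48, 9.57, 9.44 and 9.42 on the 2DG arrays, a change of 4.08 (SE 0.079, adjusted p = 2.33e-16). It was thus near the lower end of the arrays in all 4 vehicle samples and at a middle level in all 4 treated ones. The receptor gene itself, NR3C1, rose by 0.71, its cochaperone FKBP5 by 0.57 and the monoamine oxidase gene MAOA by 2.20, 3 genes named after their values were seen. The members that fell included ANGPTL4, an inhibitor of lipoprotein lipase, by 1.89, and the G protein regulator RGS2, by 0.77. HSD11B1, which regenerates cortisol, fell by 0.58, from 5.75 to 5.17, low on the arrays. Without shared probe sets 3 of 22 members fell. ANGPTL4 had values of 11.66, 11.83, 11.70 and 11.87 on the vehicle arrays and 9.90, 9.91, 9.83 and 9.87 on the 2DG arrays. The brightest unshared probe set changed by 1.22 for NR3C1.

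Kruppel-like factors, clock genes and the MYC and MXD network had more rises than falls, where 29.0% of all genes rose and 25.2% fell. The network, with 44.4% and 22.2%, lay nearer to these shares than the other lists of this paragraph. Of the Kruppel-like factors, 14 of 21 rose and none fell, with a median change of 0.55; 1 member fell under 6 of the alternative settings. KLF4, which drives epithelial differentiation, had values of 9.79, 9.77, 9.93 and 9.83 on the vehicle arrays and 12.59, 12.59, 12.58 and 12.68 on the 2DG arrays, a change of 2.78 (SE 0.054, adjusted p = 2.13e-16). KLF9 rose by 2.50 and KLF11 by 2.37. Among circadian clock genes, 12 of 21 rose and 4 fell, with a median change of 0.32. The period gene PER2 rose by 1.41, the kinase gene CSNK1D by 1.44 and the repressor gene NFIL3 by 1.83, while CRY1 fell by 0.37 and BMAL2 by 0.82. In the MYC and MXD network, 8 of 18 rose and 4 fell, with a median change of 0.11, and 2 of 14 fell without shared probe sets. MYC itself was at 12.71, 12.71, 12.71 and 12.72 on vehicle and 12.55, 12.58, 12.62 and 12.60 with 2DG, a fall of 0.12 (SE 0.037, adjusted p = 0.0083). Of the genes for MAX partners that oppose MYC, MXI1, MXD1 and MNT rose by 1.60, 1.20 and 0.88, and MGA fell by 0.60, a call that was lost without shared probe sets (adjusted p = 0.101). The mean over every probe set moved by 0.92 for KLF9, 0.89 for PER2, 0.60 for CSNK1D, 0.33 for MXD1, 0.41 for MNT and -0.31 for MGA. Without shared probe sets the change was -1.51 for BMAL2 and -0.26 for MGA.

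Nutrient sensors moved in both directions, as 29.0% (rises) and 25.2% (falls) of all genes did, and some isoforms opposed each other. In the list of AMPK, mTORC1 and nutrient sensing genes, 22 of 42 rose and 16 fell, with a median change of 0.14. ULK1, the kinase that starts autophagy, rose by 1.78, the mTOR inhibitor gene DEPTOR by 1.64 and the AMPK subunit gene PRKAB2 by 1.41. DEPTOR started at 5.39, low on the arrays. The S6 kinase gene RPS6KB2 fell by 0.84 and TBC1D7, a subunit of the tuberous sclerosis complex, by 0.81. The catalytic AMPK subunits, named after their values were seen, went opposite ways. PRKAA2 had values of 5.28, 5.41, 5.29 and 5.27 on the vehicle arrays and 6.47, 6.45, 6.76 and 6.16 on the 2DG arrays, a rise of 1.15, and PRKAA1 had values of 9.70, 9.70, 9.80 and 9.74 on the vehicle arrays and 8.94, 8.80, 9.01 and 9.08 on the 2DG arrays, a fall of 0.78. PRKAA1 was the brighter probe set in every sample, although levels of different probe sets are not on a common scale. The folliculin partners did the same: FNIP1, also named after its values were seen, went from 10.19 to 11.42 (change 1.23) and FNIP2 from 9.20 to 7.90 (change -1.30). Averaged over all probe sets of the gene, the change was 0.82 for DEPTOR, -0.52 for TBC1D7, 0.70 for PRKAA2, -0.37 for PRKAA1 and 0.39 for FNIP1.

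**Figure D3:**
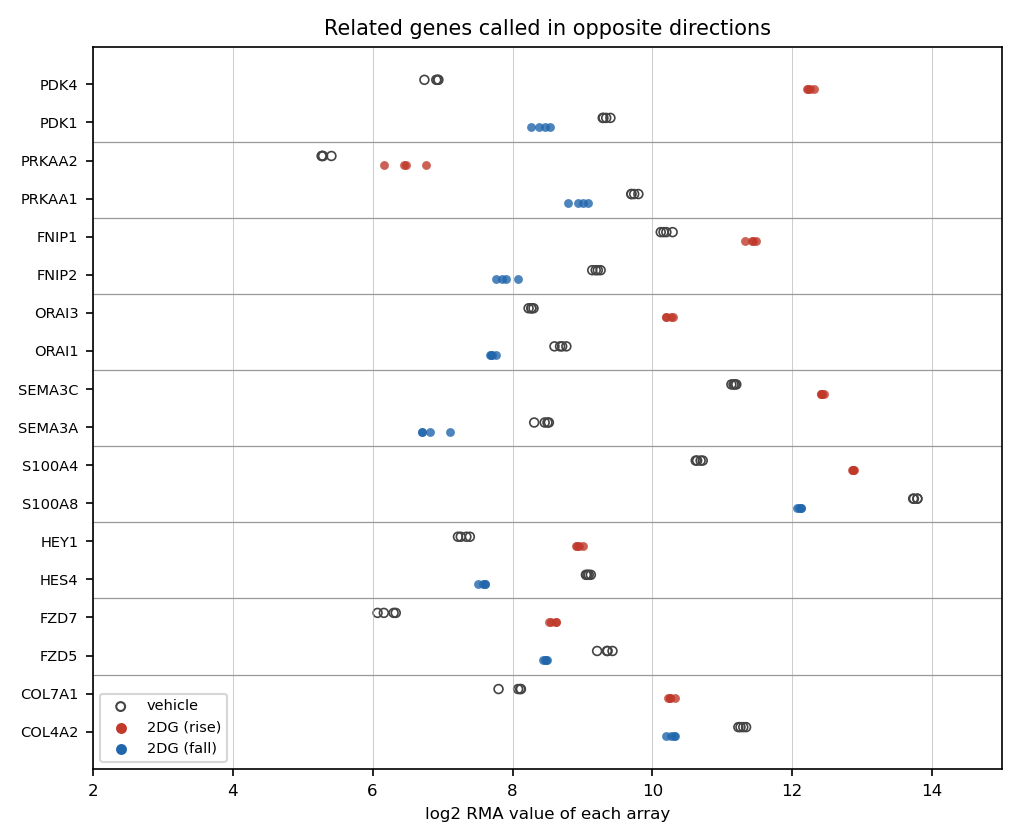
Related genes called in opposite directions, on each of the 8 MCF10A arrays (x axis, log2 RMA value; open circles, vehicle; filled circles, 2DG; red, rise; blue, fall). The 9 pairs were chosen after their values were seen: kinases of pyruvate dehydrogenase, AMPK catalytic subunits, folliculin partners, calcium entry channels, semaphorins, S100 proteins, Notch effectors, WNT receptors and collagens. The open and filled circles of a gene do not overlap in any row.

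Genes of the mitochondrial ribosome and of mitochondrial import mostly fell. Of the mitochondrial ribosomal protein genes, 1 of 45 rose and 42 fell, with a median change of -0.62; without shared probe sets 2 of 30 rose and 25 fell. MRPL1 had values of 11.33, 11.28, 11.30 and 11.30 on the vehicle arrays and 9.85, 9.81, 9.88 and 9.88 on the 2DG arrays, a fall of 1.45 (SE 0.037, adjusted p = 5.26e-15), and MRPL20 fell by 1.43. Of the genes of mitochondrial protein import and dynamics, 5 of 49 rose and 37 fell, with a median change of -0.52. The small import chaperone genes TIMM8A and TIMM8B fell by 1.86 and 1.83, while POLG, the mitochondrial DNA polymerase, rose by 0.72. The tricarboxylic acid cycle and pyruvate oxidation list was more mixed: 6 of 31 rose and 17 fell, with a median change of -0.14. There PC, which carboxylates pyruvate, rose by 1.21, and the cycle enzyme genes SUCLG2 and IDH2 fell by 1.37 and 1.10. PDK1, the hypoxia-linked relative of PDK4, fell from 9.33 to 8.41 (change -0.92), and PDK2 and PDK3, named after their values were seen, were not called (adjusted p = 0.154 and 0.886); averaged over its probe sets PDK3 changed by -0.33 and was called. Over all of its probe sets a gene's mean change was -0.59 for MRPL20, -0.94 for TIMM8A, -1.12 for TIMM8B, 0.33 for POLG and -0.42 for PDK1. Once shared probe sets were left out, the change was -0.28 for MRPL20, -0.41 for TIMM8B and -0.47 for IDH2.

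Fat oxidation genes were called in both directions, where 29.0% of all genes rose and 25.2% fell. Of the list, 13 of 32 rose and 12 fell, with a median change of -0.0012. The coactivator gene PPARGC1A rose by 1.68, the receptor gene PPARA by 1.33 and ACSL1, which activates fatty acids, by 1.28. PPARGC1A started at 4.84, low on the arrays, where small signals are compressed, and its other probe set changed by -0.085. The ketone enzyme genes BDH1 and OXCT1 fell by 2.15 and 1.58, and OXCT1 had values of 11.20, 11.16, 11.17 and 11.07 on the vehicle arrays and 9.60, 9.57, 9.64 and 9.47 on the 2DG arrays. In the lists of amino acid breakdown and peroxisomes falls outnumbered rises. Of the former, 10 of 33 rose and 16 fell, with a median change of -0.12; the glycine cleavage gene GLDC fell by 2.27 and KYNU, which breaks down kynurenine, rose by 0.93. Of the latter, 8 of 25 rose and 12 fell, with a median change of -0.17; the bifunctional enzyme gene EHHADH fell by 1.36 and the ether lipid gene GNPAT rose by 0.70; 4 rose with all probe sets averaged. With every probe set of a gene averaged, the change came to 0.80 for PPARGC1A, 0.59 for PPARA and -1.34 for BDH1. Probe sets that are not shared gave -0.54 for BDH1.

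Genes for making nucleotides, for splicing and for nuclear transport mostly fell. In purine and pyrimidine synthesis, 0 of 22 rose and 21 fell, with a median change of -0.77. Deoxycytidine kinase, DCK, lay between 10.92 and 11.05 on the vehicle arrays and had 8.82, 8.87, 8.92 and 8.90 on the 2DG arrays, a fall of 2.12 (SE 0.047, adjusted p = 1.21e-15). The cytidine triphosphate synthase gene CTPS1 fell by 1.97 and UMPS, which completes uridine monophosphate, by 1.92. Of the splicing factors, 8 of 43 rose and 32 fell, with a median change of -0.55. SRSF7 lay between 13.01 and 13.04 on 3 vehicle arrays, with the other just below, and had 10.64, 10.61, 10.61 and 10.50 on the 2DG arrays, a fall of 2.43 (SE 0.035, adjusted p = 7.75e-18). SRSF3 and SRSF1, of the same serine and arginine rich family, fell by 1.57 and 1.33, whereas CLK1 and CLK4, kinases that act on that family, rose by 1.12 and 1.05. HNRNPA2B1 fell by 1.52 at its brightest probe set, and its direction depended on the probe set. HNRNPA1, which has many pseudogenes and is uncertain for that reason, rose by 1.03. Of nucleoporins and importins, 3 of 38 rose and 32 fell, with a median change of -0.52; the pore membrane protein gene NDC1 fell by 2.25 and the scaffold gene NUP93 by 1.49. With array medians centred, 1 nucleoporin or importin rose. The mean over every probe set moved by -1.10 for UMPS, -1.13 for SRSF7, -0.68 for SRSF1, -0.10 for HNRNPA2B1, 0.68 for HNRNPA1 and -0.84 for NUP93. The brightest unshared probe set changed by -0.57 for UMPS, -2.46 for SRSF1 and 0.50 for HNRNPA2B1.

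Genes of the cytosolic ribosome mostly rose, by small amounts. Of its protein genes, 26 of 37 rose and 1 fell, with a median change of 0.15. RPL34 had values of 13.97, 13.96, 13.98 and 13.99 on the vehicle arrays and 14.20, 14.39, 14.30 and 14.37 on the 2DG arrays, a change of 0.34 (SE 0.038, adjusted p = 7.76e-07), and RPL14 and RPL31 rose by 0.35 and 0.34. The groups did not overlap for RPL34, although the change was 1.27-fold. The 1 member that fell lost its call under 9 alternatives, and without shared probe sets 12 of 25 rose and 4 fell. Ribosomal protein genes have many processed pseudogenes, so that single members are uncertain. RPL22L1, a paralogue of a ribosomal protein and 1 of the 5 brightest genes with a change of at least 1, fell from 13.55 to 12.07 (change -1.48). Translation factors went both ways: 14 of 40 rose and 19 fell, with a median change of -0.083, and 9 of 32 rose without shared probe sets. The cap-binding gene EIF4E fell by 1.37 and EIF5A2 by 1.66, while EIF4B, which assists the helicase of initiation, rose by 0.72 and EIF2A by 0.76. Without shared probe sets the change was 0.22 for RPL14 and 1.21 for RPL31.

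Proteasome genes fell nearly throughout, 29 of 30 against none that rose, with a median change of -0.55. After a further quantile normalization within MCF10A, 1 member rose. PSME3, a subunit of the nuclear activator cap, had values of 11.34, 11.30, 11.37 and 11.36 on the vehicle arrays and 9.14, 9.13, 9.25 and 9.08 on the 2DG arrays, a fall of 2.19 (SE 0.042, adjusted p = 2.14e-16). PSMC3, an ATPase of the regulatory particle, had values of 11.94, 11.95, 11.96 and 11.90 on the vehicle arrays and 10.86, 10.79, 10.87 and 10.68 on the 2DG arrays, a fall of 1.14 (SE 0.068, adjusted p = 2.5e-10). PSMD2, a scaffold of the same particle, had values of 12.71, 12.73, 12.66 and 12.73 on the vehicle arrays and 11.70, 11.62, 11.72 and 11.65 on the 2DG arrays, a fall of 1.03 (SE 0.035, adjusted p = 2.07e-13). All of these 3 were bright on vehicle, and their groups were separate. In MHC class I antigen presentation, which uses peptides from the proteasome, 8 of 24 rose and 11 fell, with a median change of -0.087, and 3 of 19 rose without shared probe sets. The immunoproteasome genes PSMB9 and PSMB10 fell by 0.80 and 0.89, the stress ligand gene MICB by 1.39, and the nonclassical genes HLA-E and MR1 rose by 0.79 and 1.20. Once shared probe sets were left out, the change was 1.20 for HLA-E.

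The promoters of these 3 proteasome genes are printed beside those above because the proteasome list had the highest share of falls. Capitals mark the E-box CACGTG, which reads the same on both strands. PSME3 (chr17:42833147-42833446, plus strand) had one 42 bases before the start, and PSMC3 (chr11:47426390-47426689, minus strand) and PSMD2 (chr3:184298991-184299290, plus strand) had none of the 4 motifs.
PSME3: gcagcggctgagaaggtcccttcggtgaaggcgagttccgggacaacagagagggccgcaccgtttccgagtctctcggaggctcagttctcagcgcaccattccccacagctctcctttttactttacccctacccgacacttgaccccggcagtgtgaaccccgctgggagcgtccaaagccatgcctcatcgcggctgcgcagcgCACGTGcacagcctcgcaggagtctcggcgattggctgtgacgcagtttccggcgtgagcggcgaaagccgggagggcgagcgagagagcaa
PSMC3: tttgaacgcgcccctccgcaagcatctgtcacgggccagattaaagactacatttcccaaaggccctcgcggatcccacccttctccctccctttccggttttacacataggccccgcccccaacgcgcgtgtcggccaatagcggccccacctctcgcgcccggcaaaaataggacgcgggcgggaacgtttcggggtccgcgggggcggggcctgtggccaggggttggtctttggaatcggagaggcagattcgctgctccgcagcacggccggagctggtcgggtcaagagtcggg
PSMD2: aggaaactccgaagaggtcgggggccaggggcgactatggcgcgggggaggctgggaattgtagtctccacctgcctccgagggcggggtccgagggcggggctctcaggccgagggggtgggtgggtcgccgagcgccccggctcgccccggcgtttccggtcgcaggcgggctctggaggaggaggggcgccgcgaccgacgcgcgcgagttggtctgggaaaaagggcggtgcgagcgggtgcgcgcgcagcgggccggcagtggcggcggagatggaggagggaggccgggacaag
The E-box was in 8.90% of all 15384 promoters, in 9.39% of called rises and in 11.4% of called falls. It was in 7.53% of the rises of at least 1 outside the lists set aside and in 13.9% of such falls. In the proteasome list 2 of 25 promoters (8.0%) held it, and in the FOXO and insulin list 7 of 32 (21.9%).

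Lipid export and signalling genes changed in part, where 29.0% of all genes rose and 25.2% fell. Among ABC transporters and liver X receptor targets, 11 of 21 rose and 1 fell, with a median change of 0.18. ABCA12, which loads lipid into epidermal lamellar granules, had values of 8.59, 8.71, 8.61 and 8.75 on the vehicle arrays and 10.91, 10.73, 10.79 and 10.75 on the 2DG arrays, a change of 2.13 (SE 0.088, adjusted p = 2.42e-12), while the mitochondrial transporter gene ABCB10 fell by 0.96. Without shared probe sets 6 of 15 rose and none fell, and over the other alternatives 1 to 3 members fell. Of the sphingolipid genes, 15 of 33 rose and 11 fell, with a median change of 0.025. Those that dispose of sphingosine 1-phosphate rose: the phosphatase gene SGPP2 by 2.63 and the lyase gene SGPL1 by 1.92. The receptor gene S1PR1 rose by 1.88, while SPHK1, the kinase that makes the ligand, fell from 9.71 to 8.41 (change -1.30) and the glucosylceramide synthase gene UGCG by 1.17. Of lipid droplet genes, 11 of 28 rose and 7 fell, with a median change of -0.005, and 4 of 18 fell without shared probe sets. The phosphatidate phosphatase genes LPIN1 and LPIN2 rose by 1.27 and 1.55 and the fatty acid carrier gene FABP5 fell by 1.48.

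Growth factor pathway lists had calls in both directions, where 29.0% of all genes rose and 25.2% fell. The WNT list, with 31.7% and 29.3%, lay close to these shares. Falls were 28.6% of the ERBB list and 18.8% of the Notch list. Of ERBB receptors, ligands and regulators, 11 of 21 rose and 6 fell, with a median change of 0.15. CBLB, which marks receptors for degradation, had values of 7.50, 7.47, 7.59 and 7.47 on the vehicle arrays and 11.33, 11.41, 11.35 and 11.33 on the 2DG arrays, a change of 3.85 (SE 0.037, adjusted p = 2.97e-19). The receptor gene ERBB3 rose by 1.85 and ERRFI1, an inhibitor of EGFR, by 1.72. LRIG1, another inhibitor of ERBB receptors, fell by 0.74, and the ligand genes TGFA and NRG1 fell by 0.86 and 1.63. In the TGF-beta, BMP and ID list, 21 of 42 rose and 9 fell, with a median change of 0.18. The coreceptor gene TGFBR3 rose by 1.70 and the signalling receptor gene TGFBR2 fell by 0.96. The activin antagonist FST fell by 2.27 and the latent TGF-beta binding protein gene LTBP3 rose by 2.02, a call that was lost without shared probe sets (adjusted p = 0.659). In the Notch pathway, 12 of 32 rose and 6 fell, with a median change of 0.095. The effector gene HEY1 rose from 7.30 to 8.95 (change 1.65), HES4 fell from 9.08 to 7.57 (change -1.51), and the ligand gene JAG2 fell by 0.78. In the WNT pathway, 13 of 41 rose and 12 fell, with a median change of 0.02. The receptor gene FZD7 had values of 6.30, 6.16, 6.33 and 6.07 on the vehicle arrays and 8.55, 8.52, 8.62 and 8.62 on the 2DG arrays, a change of 2.36 (SE 0.052, adjusted p = 1.07e-15), while FZD5 fell by 0.86 and the ligand gene WNT7A by 0.74. Averaged over all probe sets of the gene, the change was 2.55 for CBLB, 0.78 for ERBB3, -0.15 for LRIG1, -0.36 for NRG1 and 1.18 for LTBP3. Probe sets that are not shared gave -0.29 for NRG1, -4.60 for FST, 0.062 for LTBP3 and -0.43 for FZD5.

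Epithelial genes moved both ways, where 29.0% of all genes rose and 25.2% fell. In the list of epidermal differentiation and desmosome genes, 17 of 42 rose and 12 fell, with a median change of 0.071, and 5 of 29 fell without shared probe sets. The cornified envelope protein gene PPL rose by 2.27, the desmosomal cadherin gene DSG3 by 1.64 and the protease gene KLK7 by 1.76. SERPINB3, a serpin of squamous epithelium, had values of 8.22, 8.45, 8.75 and 8.21 on the vehicle arrays and 5.65, 5.66, 5.43 and 5.91 on the 2DG arrays, a fall of 2.75 (SE 0.15, adjusted p = 7.84e-11), and the envelope protein gene SPRR3 fell by 1.46. Of the keratins, 3 of 19 rose and 6 fell, with a median change of 0.0025; KRT16, a keratin of activated epidermis, rose by 1.95 and KRT7 fell by 0.89. Of tight junction genes, 18 of 33 rose and 7 fell, with a median change of 0.24, and 4 of 29 fell without shared probe sets. Occludin, OCLN, had values of 10.74, 10.62, 10.73 and 10.59 on the vehicle arrays and 11.89, 11.88, 11.86 and 11.82 on the 2DG arrays, a change of 1.19 (SE 0.042, adjusted p = 3.18e-13). CLDN15 rose by 1.13 and the adaptor gene CGN fell by 0.81. S100 calcium-binding proteins opposed each other: in their list 7 of 18 rose and 6 fell, with a median change of 0.10. The list also counts S100PBP, the gene of an S100P-binding protein outside the family, which rose by 0.89. S100A4 had values of 10.62, 10.64, 10.72 and 10.69 on the vehicle arrays and 12.87, 12.86, 12.87 and 12.89 on the 2DG arrays, and S100P rose by 1.54. The antimicrobial members fell: S100A8, 1 of the 5 brightest genes with a change of at least 1, had values of 13.73, 13.74, 13.79 and 13.79 on the vehicle arrays and 12.10, 12.13, 12.07 and 12.12 on the 2DG arrays, S100A9 fell by 1.86 and S100A7 by 1.92. The changes of S100A4 and S100A8 were 2.21 and -1.66. Over all of its probe sets a gene's mean change was -0.53 for KRT7. The brightest unshared probe set changed by -0.28 for KRT7.

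**Figure D4:**
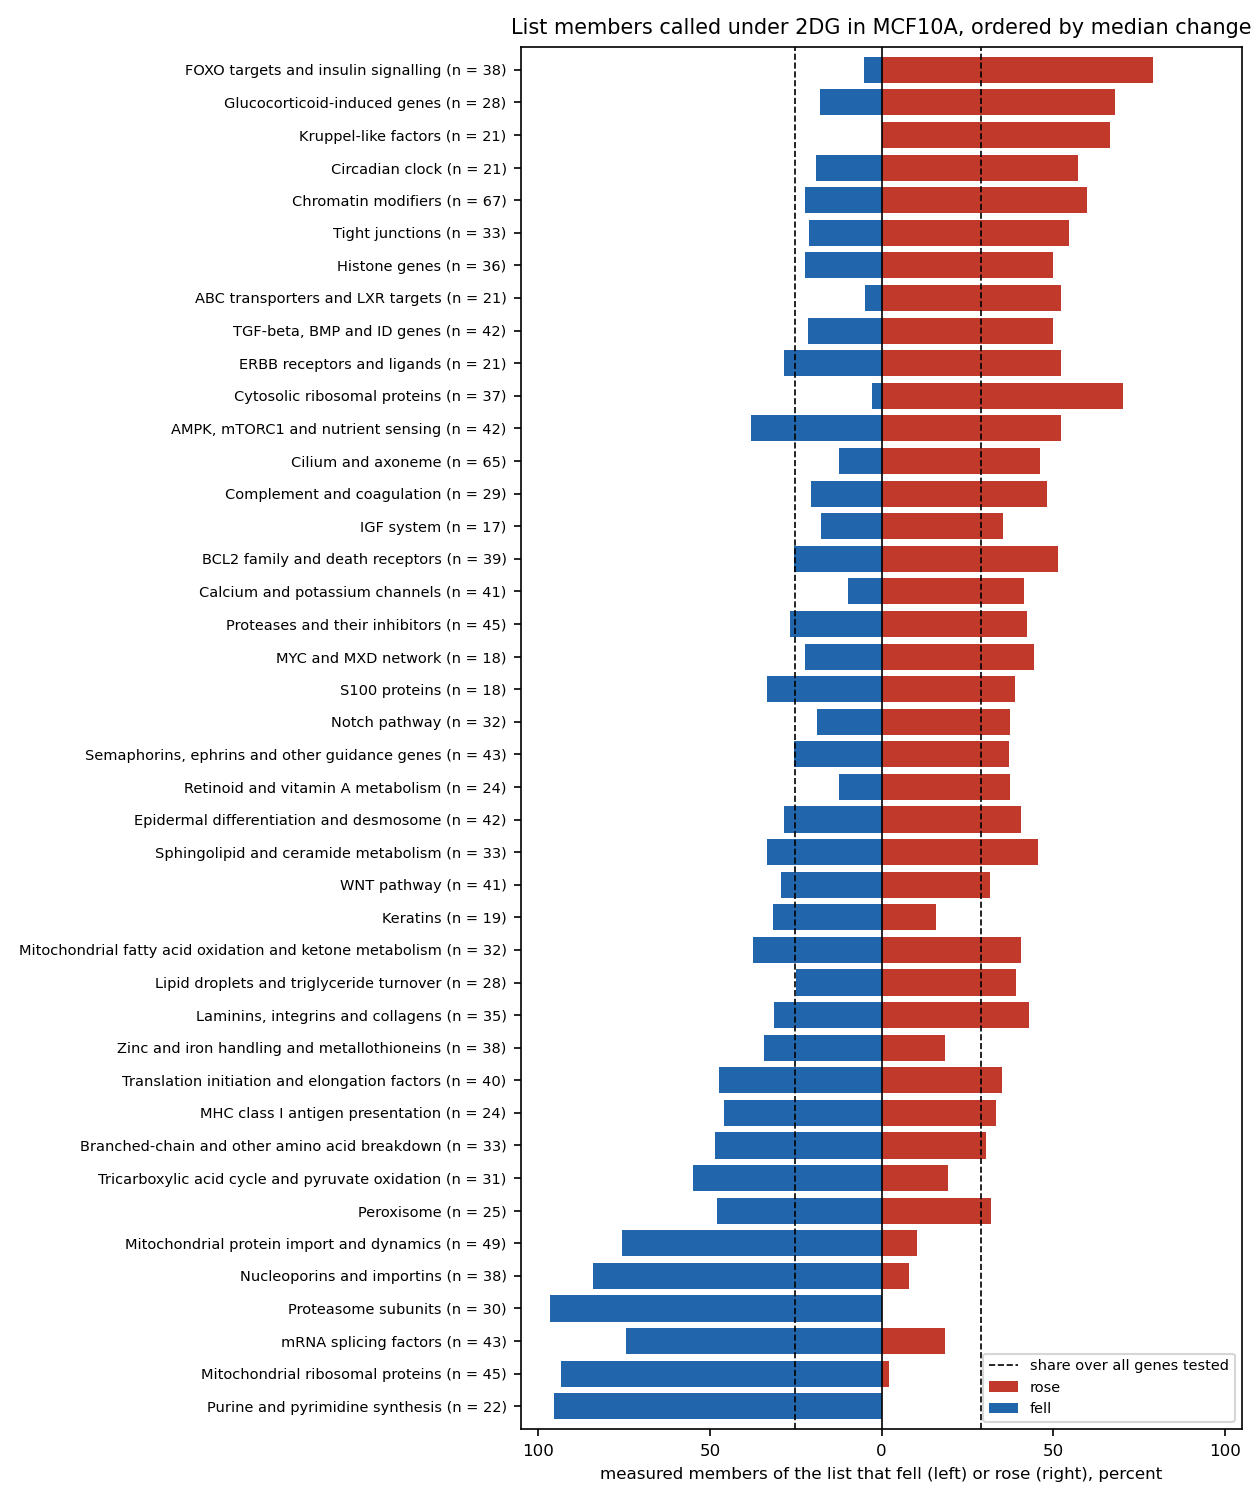
Share of the measured members of 42 gene lists that fell (blue, left) or rose (red, right) under 2DG in MCF10A. The x axis is percent of measured members, n is their number, and dashed lines mark the shares over all genes tested (25.2% fell, 29.0% rose). Lists run from the lowest median change (purine and pyrimidine synthesis, -0.77) to the highest (FOXO targets and insulin signalling, 1.00); the WNT pathway, with a median of 0.02, lies close to both dashed lines.

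Matrix genes and the proteases that cut them also moved both ways, where 29.0% of all genes rose and 25.2% fell. The falls among proteases and their inhibitors (26.7%) and among guidance genes (25.6%) lay near that share. Of laminins, integrins and collagens, 15 of 35 rose and 11 fell, with a median change of -0.02. The anchoring fibril collagen gene COL7A1 had values of 8.11, 7.80, 8.08 and 8.12 on the vehicle arrays and 10.23, 10.25, 10.25 and 10.32 on the 2DG arrays, a change of 2.23 (SE 0.066, adjusted p = 3.15e-14). COL16A1 and COL1A1 rose by 1.95 and 2.11, while the basement membrane gene COL4A2 fell by 1.01 and COL8A1 by 2.24. Of proteases and their inhibitors, 19 of 45 rose and 12 fell, with a median change of 0.11. The gelatinase gene MMP9 had values of 12.06, 11.95, 12.04 and 12.09 on the vehicle arrays and 9.49, 9.50, 9.67 and 9.52 on the 2DG arrays, a fall of 2.49 (SE 0.12, adjusted p = 1.93e-11). The stromelysin gene MMP10 fell by 2.77 and ADAMTS1 by 2.44, while the inhibitor gene TIMP3 rose by 0.90. Among semaphorins, ephrins and other guidance genes, 16 of 43 rose and 11 fell, with a median change of 0.09. SEMA3C rose by 1.26 and EFNA1 by 1.60, whereas SEMA3A and the semaphorin receptor genes NRP1 and NRP2 fell by 1.61, 1.40 and 0.92. In the complement and coagulation list, 14 of 29 rose and 6 fell, with a median change of 0.13; the thrombin receptor gene F2R rose by 2.33 and clusterin, CLU, by 1.85, and the inhibitor gene TFPI2 fell by 1.59. With every probe set of a gene averaged, the change came to 0.90 for COL1A1, -1.32 for COL8A1, -0.42 for NRP1, 1.39 for F2R and 1.06 for CLU. Without shared probe sets the change was 0.45 for F2R and -0.85 for TFPI2.

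Channels and metal handling genes were called, in both directions together, at about the share of all genes, but their directions departed from it. The share called depended on the level, and of genes with a mean of at least 6 in a group, 10006 of 13573 were called. The zinc and iron list, at a median vehicle level of 10.53 and with 52.6% called, lay below that. Over all genes 29.0% rose and 25.2% fell. Channel genes rose in 41.5% and fell in 9.8%, and zinc and iron genes rose in 18.4% and fell in 34.2%. Of calcium and potassium channel genes, 17 of 41 rose and 4 fell, with a median change of 0.12. The store-operated calcium channel genes went opposite ways: ORAI3 had values of 8.27, 8.27, 8.30 and 8.23 on the vehicle arrays and 10.20, 10.20, 10.30 and 10.27 on the 2DG arrays, a change of 1.98 (SE 0.055, adjusted p = 1.55e-14). ORAI1 had values of 8.71, 8.68, 8.77 and 8.60 on the vehicle arrays and 7.68, 7.69, 7.70 and 7.77 on the 2DG arrays, a fall of 0.98 (SE 0.066, adjusted p = 1.2e-09), and ORAI2, named after its values were seen, rose by 0.59. The potassium channel gene KCNQ5 fell by 1.92 and KCNK6 rose by 1.12. In zinc and iron handling, 7 of 38 rose and 13 fell, with a median change of -0.04, and 8 of 27 fell without shared probe sets. The zinc importer genes SLC39A4 and SLC39A8 fell by 1.89 and 1.27 and the exporter gene SLC30A4 rose by 1.14. The reductase genes STEAP3 and CYBRD1 rose by 1.35 and 1.18 and STEAP1 fell by 1.78. Of the phosphate transporter SLC20A1, the brightest gene on vehicle with a change of at least 1, the values were 13.84, 13.85, 13.82 and 13.83 on the vehicle arrays and 12.59, 12.63, 12.63 and 12.61 on the 2DG arrays, a fall of 1.22 (SE 0.029, adjusted p = 2.69e-15). The mean over every probe set moved by -1.03 for KCNQ5, -0.62 for SLC39A8, 0.57 for SLC30A4 and 1.79 for CYBRD1. Once shared probe sets were left out, the change was 1.07 for ORAI2 and 0.84 for STEAP3.

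Of the chromatin modifiers, 40 of 67 rose and 15 fell, with a median change of 0.24. Rises made up 59.7% and falls 22.4%, against 29.0% and 25.2% of all genes. The histone demethylase gene KDM3A rose by 1.56 and the deacetylase gene HDAC5 by 1.40, while the arginine methyltransferase genes PRMT6 and PRMT3 fell by 2.06 and 1.38. PRMT6 had values of 10.60, 10.62, 10.60 and 10.51 on the vehicle arrays and 8.46, 8.47, 8.61 and 8.56 on the 2DG arrays. Of the histone genes, 18 of 36 rose and 8 fell, with a median change of 0.20, and 10 of 25 rose and 5 fell without shared probe sets and 14 of 22 and 5 without dim genes. H2BC5 had values of 8.99, 8.84, 9.08 and 9.03 on the vehicle arrays and 12.36, 12.26, 12.30 and 12.34 on the 2DG arrays, a change of 3.33 (SE 0.053, adjusted p = 2.36e-17), and H4C8 and H2AC6 rose by 3.56 and 3.53. Histone genes have near-identical copies and most of their messengers lack a poly(A) tail, so that the copy behind each value is uncertain. In the cilium and axoneme list, 30 of 65 rose and 8 fell, with a median change of 0.14. The Bardet-Biedl genes BBS1 and BBS12 rose by 1.53 and 1.54 and CFAP20 fell by 0.99. Averaged over all probe sets of the gene, the change was 0.92 for KDM3A, 0.78 for HDAC5 and 0.45 for BBS1.

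Of BCL2 family and death receptor genes, 20 of 39 rose and 10 fell, with a median change of 0.12. The rises (51.3%) were above the 29.0% of all genes, and the falls (25.6%) were near the 25.2% of all genes. The death ligand gene TNFSF10 had values of 7.53, 7.67, 7.75 and 7.72 on the vehicle arrays and 9.81, 9.75, 9.75 and 9.86 on the 2DG arrays, a change of 2.12 (SE 0.081, adjusted p = 8.56e-13). BCL2L11, which encodes the death-promoting protein BIM, rose by 1.90 and the mitophagy receptor gene BNIP3L by 1.15, while BCL2L12 fell by 1.33. Of retinoid and vitamin A genes, 9 of 24 rose and 3 fell, with a median change of 0.079, and 5 fell with array medians centred. The retinol dehydrogenase gene DHRS9 had values of 6.73, 6.79, 6.91 and 6.93 on the vehicle arrays and 8.99, 8.86, 9.11 and 9.15 on the 2DG arrays, a change of 2.19 (SE 0.083, adjusted p = 7.86e-13). LRAT, which stores retinol as esters, rose by 1.38 and DHRS3, which reduces retinal, by 1.32, while RDH11 fell by 0.42. Over all of its probe sets a gene's mean change was 0.86 for BCL2L11.

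Whether a change was particular to MCF10A was tested as the difference of its response from that of MDA-MB-231, where line and medium cannot be told apart. The difference was called for 9065 genes (45.8%), and for 9082 without vehicle replicate B of MDA-MB-231, whose actin ratio was 1.09 where its 3 companions had 0.38 to 0.47. The actin ratio also rose with 2DG in MDA-MB-231, to between 0.97 and 1.13, and with it as a covariate 8917 differences were called. Of the 1843 changes of at least 1 outside the lists set aside, 1640 differed between the lines, and in 1522 of these the response lay further in its own direction in MCF10A. These genes were chosen by the size of their change in MCF10A, which favours that outcome. The count thus does not show which line responded more. RHOU changed by 3.91 in MCF10A and by -1.20 in MDA-MB-231, a difference of 5.11 (SE 0.10, adjusted p = 6.29e-15, and 5.10 without that array). CXCL8 changed by -4.26 and 1.91, a difference of -6.17 (SE 0.083, adjusted p = 7.45e-17, and -6.14 without that array). The myosin light chain kinase gene MYLK (2.62 and -1.83), KBTBD8 (-3.02 and 2.35) and the collagenase gene MMP1 (-2.40 and 2.22) also had changes of opposite sign in the lines. For CACNA2D3 (-0.0075) and PTPRZ1 (-0.043) the response in MDA-MB-231 was near 0, and for CAPN8 (0.48) and ABCG1 (0.90) it was small. On vehicle the levels in that line were 3.84 for CACNA2D3, 4.25 for PTPRZ1, 4.27 for CAPN8 and 4.30 for ABCG1. All of these are near the floor of the arrays. A fall of PTPRZ1 could hardly have been seen there, so its difference does not show that an expressed gene failed to respond. TMEM171 changed little in MCF10A (-0.35) and rose by 3.45 in MDA-MB-231. These 10 differences were called under every setting that gave them a value, which for CACNA2D3 and CXCL8 did not include the one without shared probe sets. Over the settings, ABCG1 ran from 1.67 to 4.38, MYLK from 1.46 to 4.50 and RHOU from 3.67 to 5.19. Among the leading genes, LINC00622 changed by 4.47 and TSC22D3 by 3.54 in MDA-MB-231, and TMPO-AS1, at -2.39 there, did not pass the test of a difference (adjusted p = 0.103). With every probe set of a gene averaged, the change came to 0.77 for MYLK.

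**Figure D5:**
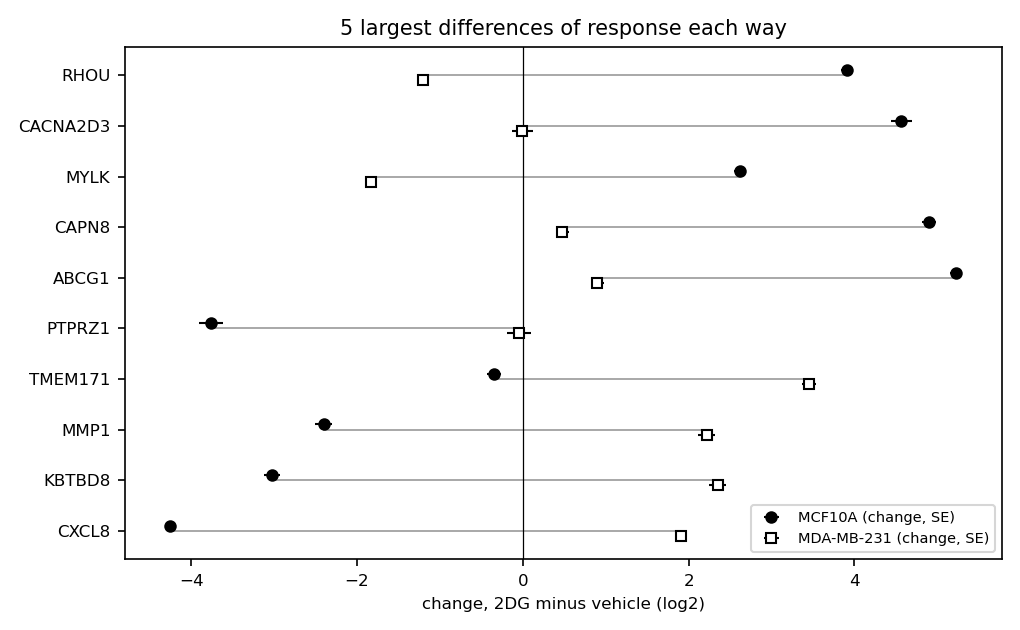
The 5 largest differences of the 2DG response each way among genes called in MCF10A. The x axis is the change, 2DG minus vehicle (log2); filled circles are MCF10A and open squares MDA-MB-231, bars are the SE of the fit and grey lines join the lines' values. RHOU, MYLK, MMP1, KBTBD8 and CXCL8 lie on opposite sides of 0 in the 2 lines, and TMEM171 differs through its rise in MDA-MB-231.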

How the data were processed

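RNA of 16 samples was hybridised to 3' expression arrays, 1 array a sample. The authors' deposited values are on the log2 scale and were made by RMA, per the submitters' processing notes. The RMA version, and whether the 16 arrays were normalized together, are not given in the sources used here. Values ran from 2.38 to 15.15, and array medians from 6.17 to 6.22. Of 54675 probe sets, 62 were controls and were not tested. In the platform annotation 41097 probe sets had 1 gene symbol, of which 41043 matched RefSeq, and 1801 had several and were not used; 11721 that are no controls are not listed there and were not used. A few controls carry an annotation, so that these numbers overlap. For each of 19775 genes the probe set brightest on average over the 16 arrays was taken. A joint model of 4 groups of 4 was fitted with limma 3.58.1 (R 4.3.3; 12 residual degrees of freedom, eBayes), and p-values were adjusted by Benjamini-Hochberg over all genes. A call is an adjusted p under 0.05. The difference of responses was a contrast of the same model. The script was tested on simulated data. Python 3.11.15 with numpy 2.4.6, pandas 2.3.3 and scipy 1.17.1 was used for the rest. No deposited value column belonged to another series.

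Genes were named by a rule: the 15 largest called rises and falls outside the lists set aside, the 3 largest calls each way in each list of at least 10 measured members, the 5 largest differences between lines each way, and the 5 brightest genes with a change of at least 1. Other genes, named as such, were chosen after their values were seen. The gene lists, the rule and the genes described were chosen with earlier results of these data known. The 43 lists hold 1594 genes, of which 1456 had a value and 1080 were called; 138 had none. One of the lists is not reported here. Alternatives were the mean of all probe sets, leaving out probe sets shared between transcripts (suffix _s_at or _x_at), a floor of 6 on the level, the MCF10A arrays alone, eBayes with trend and robust, the replicate letter as a block, the actin ratio as a covariate, a second quantile normalization, centred medians, each MCF10A array left out in turn, a threshold of 0.01, and 1 vehicle array of MDA-MB-231 left out (chosen after seeing the data). The number of arrays limits the precision.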

Additional observations from a re-analysis of the deposited data

Results flagged for a closer look

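In 30 of 520 groups of 4 arrays (260 genes, vehicle and 2DG) the highest or lowest array lay apart from the other 3 by Dixon's test. The level was 95 percent, where chance gives about 1 in 20 groups if values are continuous. The deposited values are rounded, so that this rate holds only roughly. For RPL31, CSNK1D, MYC and HNRNPA2B1 the array apart differed only in the last digits given, which rounding can produce. 2DG replicate A was the array apart for IGFBP7 (11.45, others 11.32 to 11.34), RPL31 (14.62, others 14.63) and S100P (12.36, others 12.44 to 12.45). 2DG replicate B lay apart in CSNK1D (11.07, others 11.08), EHHADH (6.13, others 6.28 to 6.30) and GLDC (6.51, others 6.20 to 6.25). 2DG replicate C stood off from the rest for AHRR (9.01, others 8.60 to 8.65), HNRNPA1 (13.27, others 13.32 to 13.33), KRT8 (11.34, others 11.22 to 11.24), MMP9 (9.67, others 9.49 to 9.52), MNT (10.36, others 10.44 to 10.45), PDCD1LG2 (5.49, others 5.23 to 5.26), POLR3A (9.20, others 9.08 to 9.10) and SCNN1B (6.74, others 5.99 to 6.11). 2DG replicate D was apart in the values of CFAP53 (8.61, others 8.86 to 8.88), KLF4 (12.68, others 12.58 to 12.59) and STEAP3 (11.15, others 11.20 to 11.21). Vehicle replicate B was the array apart for COL7A1 (7.80, others 8.08 to 8.12), PDK4 (6.74, others 6.91 to 6.94) and PRKAA2 (5.41, others 5.27 to 5.29). Vehicle replicate C lay apart in CYBRD1 (8.27, others 8.10 to 8.12), HNRNPA2B1 (13.49, others 13.51), TMEM201 (10.46, others 10.19 to 10.22) and TNFSF15 (7.88, others 7.75 to 7.76). Vehicle replicate D stood off from the rest for BCL6 (9.10, others lower), MYC (12.72, others 12.71), PSMB9 (8.16, others 8.04 to 8.06), SAT1 (12.33, others 12.26 to 12.27), SPHK1 (9.61, others 9.73 to 9.74) and TBC1D7 (9.88, others 9.82 to 9.83). No array held more than 8 of the 30.

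The response to 2DG differed between the lines, by the test of the difference described above, in ABCG1 (4.32), CAPN8 (4.42), CACNA2D3 (4.57), RHOU (5.11), CXCL8 (-6.17), PTPRZ1 (-3.71), KBTBD8 (-5.38), MYLK (4.45), MMP1 (-4.62) and TMEM171 (-3.80), where the value is the change in MCF10A minus that in MDA-MB-231. Line and medium cannot be told apart. PTPRZ1 was near the floor of the arrays in MDA-MB-231, where a fall could hardly be seen.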

How the results depend on the processing

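The count of genes called, 10721, stayed within 1.5 times under every alternative run, as did its rises, falls, changes of at least 1, differences between the lines (9065) and calls among list members. It was 10616 with all probe sets averaged, 8538 of 17098 genes without shared probe sets, 10006 of 13573 without dim genes, 10793 on the MCF10A arrays alone, 10610 with the actin covariate, 10683 with trend and robust, 10689 after a second quantile normalization and 10674 (5161 rises, 5513 falls; among list members 519 and 548) with medians centred, which turned the excess of rises round and moved the median change of all genes by -0.0375. Leaving out each MCF10A array in turn gave 10375 to 10476 calls, 5461 to 5602 rises, 4819 to 4961 falls, 1059 to 1082 rises and 1132 to 1169 falls of at least 1, 8797 to 8942 differences, and 1045 to 1066 list members, of which 538 to 556 rose and 501 to 513 fell. Letters were not taken as pairs, since the labels do not say that a letter pairs arrays. Deviations of same-lettered arrays correlated at 0.0401 to 0.0877 and those of arrays with different letters at -0.1174 to 0.0686. By this measure 4 of 4 treated and 3 of 4 vehicle arrays correlated best with their own letter. With the replicate block 10645 genes (5689 rises, 4956 falls) and 8911 differences were called.

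Of 315 genes followed singly, 7 of 257 turned sign without shared probe sets: TSC22D3 (-0.33), HNRNPA2B1 (0.50), IGF2R (-0.32), CD59 (0.65), KDM5B (-0.52), PRMT1 (0.035) and CASP8 (0.07). With all probe sets averaged 4 did: KPNA4 (-0.41), NUP133 (-0.15), EEF2K (-0.52) and YME1L1 (-0.0068). Under the other alternatives none did. Of the 264 genes named by the rule, 177 had other probe sets, 51 had 1 or more of opposite sign, and for 97 the mean of all was over 1.5 times apart. Different probe sets can read different transcripts, and the cause was not tested.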

Other observations

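The genes of this section were chosen after their values were seen and are given as values. The first 6 belong to the pathway of the aryl hydrocarbon receptor, which senses planar aromatic compounds. The feedback repressor gene AHRR had values of 5.49, 5.73, 5.69 and 5.54 on the vehicle arrays and 8.65, 8.60, 9.01 and 8.62 on the 2DG arrays, a change of 3.11 (SE 0.086, adjusted p = 1.47e-14). CYP1B1, a monooxygenase, had values of 9.96, 9.75, 9.63 and 9.61 on the vehicle arrays and 12.46, 12.46, 12.55 and 12.38 on the 2DG arrays, a change of 2.73 (SE 0.077, adjusted p = 1.9e-14). Its relative CYP1A1 rose by 1.46, TIPARP by 0.90, the receptor gene AHR by 1.29 and its partner ARNT by 0.57. In MDA-MB-231 the changes were 0.91 for AHRR, 1.63 for CYP1B1, 1.16 for CYP1A1, 0.86 for TIPARP, 0.75 for AHR and 0.10 for ARNT. The difference between the lines was not called for CYP1A1 and TIPARP (adjusted p = 0.22 and 0.617) and was for the other 4. Of 8 genes of polyamine metabolism picked in this way, 7 fell, where 25.2% of all genes did. The 8 are not a full list of the pathway, so that the count does not describe it as a whole. Ornithine decarboxylase, ODC1, had values of 13.20, 13.16, 13.20 and 13.14 on the vehicle arrays and 11.52, 11.57, 11.60 and 11.41 on the 2DG arrays, a fall of 1.65 (SE 0.046, adjusted p = 1.94e-14). The synthase genes SRM and SMS fell by 1.52 and 1.08, AMD1 by 0.97 and the polyamine transporter gene ATP13A3 by 1.99. The inhibitor gene OAZ1 fell by 0.20, its decoy AZIN1 by 0.59, and SAT1, which starts breakdown, was not called (adjusted p = 0.346), though its probe sets averaged -0.12 and were called. The mean over every probe set moved by -0.33 for AZIN1.

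Subunits of RNA polymerase III, which makes transfer RNA, changed unevenly. POLR3K had values of 11.31, 11.19, 11.28 and 11.31 on the vehicle arrays and 8.45, 8.57, 8.49 and 8.50 on the 2DG arrays, a fall of 2.77 (SE 0.039, adjusted p = 6.03e-18), and POLR3G had values of 10.06, 10.01, 9.93 and 9.93 on the vehicle arrays and 7.44, 7.37, 7.53 and 7.22 on the 2DG arrays, a fall of 2.59 (SE 0.057, adjusted p = 9.02e-16). POLR3GL, POLR3A, POLR3F, POLR3B and POLR3E fell by 1.04, 0.54, 0.50, 0.25 and 0.20, POLR3C and POLR3D rose by 0.24 and 0.28, and CRCP was not called (adjusted p = 0.202), though it was with 2 alternatives. Of the epithelial sodium channel, all 3 subunits given rose: SCNN1G by 3.51 from 6.89, SCNN1A by 0.90 from 12.12 and SCNN1B by 0.84 from 5.38. Among immune signals, the cytokine gene TSLP had values of 4.04, 4.01, 4.16 and 3.89 on the vehicle arrays and 7.52, 7.20, 7.63 and 7.57 on the 2DG arrays, a change of 3.46 (SE 0.094, adjusted p = 1.28e-14). TSLP and CXCR4 started at the low end of the arrays, where small signals are compressed, so that their changes are less certain in size. The chemokine receptor gene CXCR4 rose by 3.42 from 3.94, and its ligand gene CXCL12 was not called (adjusted p = 0.605). The receptor gene IL6R rose by 3.09 and TNFSF15 by 2.79, while the checkpoint ligand genes CD274 and PDCD1LG2 fell by 2.71 and 1.16. Averaged over all probe sets of the gene, the change was -0.28 for POLR3A, -0.091 for POLR3E, 1.82 for SCNN1G, 0.36 for SCNN1A, 2.16 for CXCR4 and -1.55 for CD274. Probe sets that are not shared gave -1.59 for POLR3K and -0.40 for POLR3E.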
